A study of Arabidopsis thaliana with 70 samples.

Results

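The comparison described here sets leaves of wild-type Arabidopsis thaliana that met living bacteria for 1 h against leaves that had received water alone. Its members are 5 of the 38 RNA libraries of the series, which holds 70 samples in all, and they were chosen by their labels. The 2 hrcC leaf libraries came from 4-week-old WT plants whose leaves were inoculated by hand with water and, 24 h later, with Pst DC3000 hrcC for 1 h. The 3 water-only libraries came from 4-week-old WT plants sampled 24 h after the water inoculation. No mutation, transgene or peptide was present in either group, and all plants were soil-grown. A further 3 pairs of groups are used for side-by-side values: the same pair of treatments in rdd, a line with mutations in ROS1, DML2 and DML3, which encode DNA demethylases, the same pair in WT leaves that received 100 nM flg22 in place of the water, and whole 10-day-old WT seedlings at 1 h of 100 nM flg22 against 0 h.

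Plants recognise conserved microbial molecules, called MAMPs, with receptor kinases at the cell surface, among them FLS2 for flagellin and EFR for elongation factor Tu. Bound receptors recruit the co-receptor BAK1 and activate cytoplasmic kinases such as BIK1, and calcium entry, an oxidative burst by RBOHD, MAP kinases and WRKY transcription factors follow within minutes. Pseudomonas syringae pv. tomato DC3000 normally suppresses this pattern-triggered immunity with effector proteins that it injects through a type III secretion system. The hrcC strain lacks a working secretion system, so that the plant meets the bacterial surface molecules without the effectors.

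Both groups come from separate sets of libraries, and whatever differs between the sets goes with the bacteria. The hrcC leaves also differ from the water-only leaves by a second hand inoculation and by a sampling time 1 h later after the first. No samples of the series are labelled as leaves inoculated a second time with water. Bacteria, library set, second wounding and sampling time cannot be told apart in any difference given below. The labels do not say whether the libraries of a group came from separate plants, so the p-values measure the spread between these libraries, which may be technical.

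The values are FPKM (fragments scaled by gene length and library total), divided by 1 size factor per library that was set on nuclear genes. The hrcC libraries correlated with each other at 0.988 over log2 values of the genes tested, and water-only replicates 1 and 2 at 0.987, while water-only replicate 3 correlated with these at 0.887 and 0.886. The organelle genes held 0.0936% and 0.109% of all FPKM in hrcC leaves, against 5.22%, 5.07% and 0.0856% in water-only leaves, so water-only replicate 3 stands apart from the other water-only libraries and lies with the hrcC libraries in this measure. The same split runs through all leaf groups without bacteria: replicates 1 and 2 had organelle shares of 3.03% to 5.54% (8 libraries), and replicate 3 had 0.0734% to 0.0979% (4 libraries). Results that rest on replicates 1 and 2 or on replicate 3 of the water-only leaves are therefore given with the values of all 5 libraries. The tissue label held in the data, since nuclear photosynthesis genes were among the highest in each of the 5 libraries, the summed level of 7 flower markers stayed at 0.557 and 0.480 FPKM in hrcC leaves, against 1.92, 1.15 and 1.38 FPKM in water-only leaves, and that of 10 root markers at 10.4 and 10.2 FPKM, against 20.7, 20.1 and 18.99 FPKM.

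Nearly 1 in 2 genes differed between the groups. Of 17989 genes tested, limma's moderated test called 8478 (47.1%), with 4211 (23.4%) higher and 4267 (23.7%) lower in hrcC leaves at an adjusted p under 0.05, and by at least 2-fold 2757 (15.3%) were higher and 2526 (14%) lower. Without hrcC replicate 2 the calls were 2841 higher and 2666 lower, and with replicates 1 and 2 alone kept in the groups without bacteria 6221 higher and 6508 lower. The median log2 fold change over all genes tested was -0.0495. Setting the nuclear genes of every library to the same total moved that median to 0.149 and the calls to 4958 higher and 3260 lower, so that 60.3% in place of 49.7% of the called genes were higher. The libraries of both groups did not overlap in 99.8% of the genes called higher and 99.7% of those called lower, and they did not overlap in 66.7% of all genes tested. These shares are the background for every group of genes below, each described by its counts and its median with no test of the group itself.

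A gene entered the test when it reached 1 FPKM in at least 2 of the 5 libraries, and a gene that did so through 1 group alone could hardly be called in the other direction. Of the 17989 genes, 768 entered through hrcC leaves alone, of which 464 were called higher and 0 lower, and 1270 through water-only leaves alone, of which 700 were called lower and 0 higher. Among the other 15951 genes 23.5% were called higher and 22.4% lower. Genes of both kinds are given below by their values and fold changes as a description, with no p in this comparison.

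**Figure D1:**
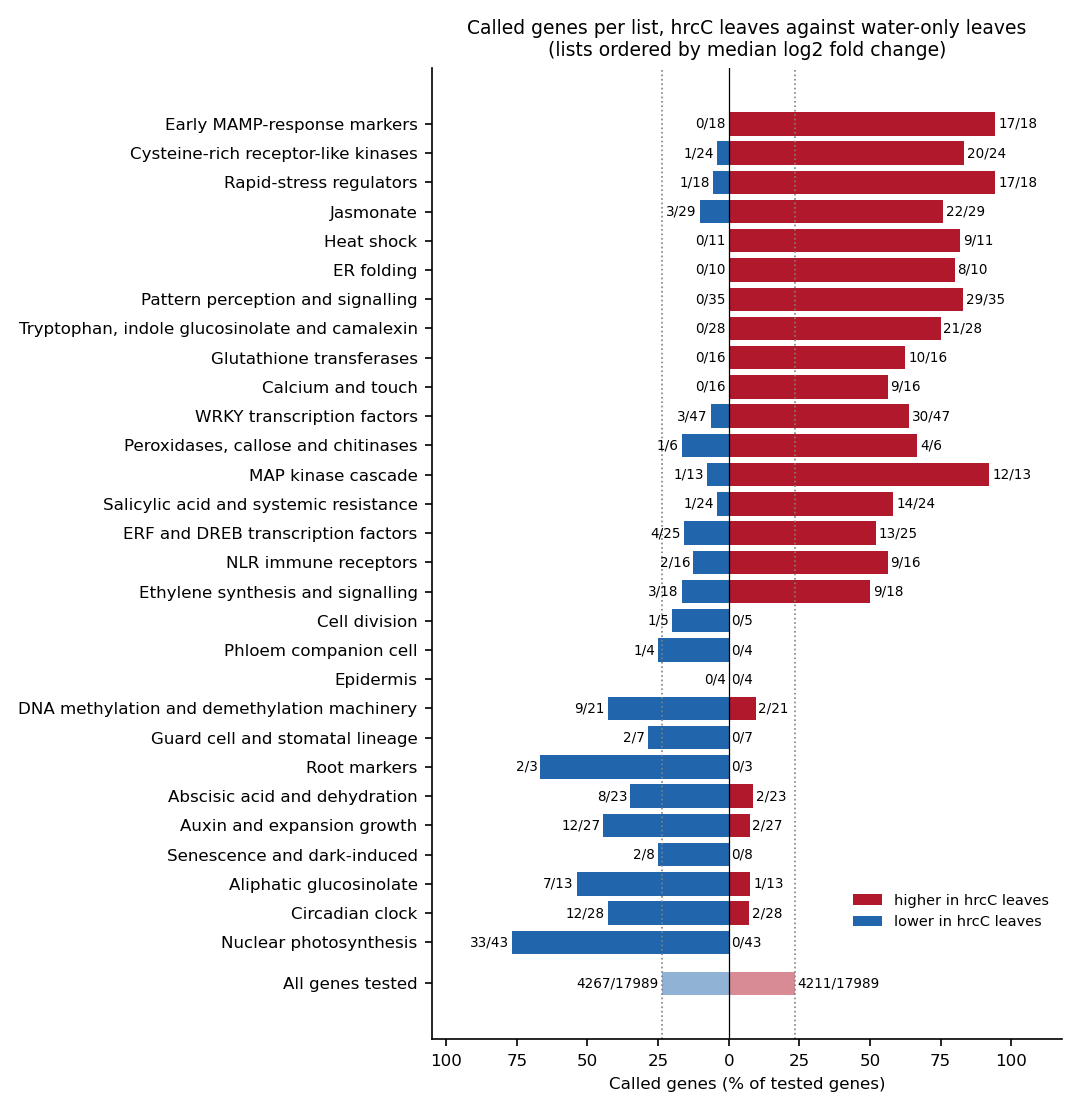
Share of tested genes called higher (right) and lower (left) in hrcC leaves against water-only leaves, in percent, for each of 29 gene lists with at least 1 tested member and for all 17989 genes tested; the numbers beside the bars give called over tested genes. Signalling, WRKY, CRK and early MAMP-response lists lie far right of the 23.4% of all genes, and photosynthesis lies far left of the 23.7%.

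The genes that mark the first hour of a MAMP response were at very different levels in both groups. All 18 early MAMP-response markers were tested, 17 rose in hrcC leaves, none fell, and their median log2 fold change was 4.31. NHL10, PER4, PROPEP2 and PROPEP3 entered the test through hrcC leaves alone, and of the other 14 markers 13 rose, with a median of 3.74. IOS1, a malectin-like receptor kinase that acts with BAK1 complexes, had 680.1 and 802 FPKM in hrcC leaves, against 2.16, 2.26 and 1.32 FPKM in water-only leaves, a log2 fold change of 8.004 ± 0.197 (limma adjusted p = 3.3e-12). FRK1, the receptor kinase most used as a reporter of flg22 responses, had 253 and 256 FPKM in hrcC leaves, against 3.24, 1.79 and 1.41 FPKM in water-only leaves, a log2 fold change of 6.39 ± 0.40 (limma adjusted p = 2.4e-08). PER4, a secreted peroxidase, had 65.7 and 64.0 FPKM in hrcC leaves, against 0.911, 0.116 and 0.114 FPKM in water-only leaves, a log2 fold change of 5.63 ± 0.23. In these 3 genes both hrcC libraries lay far above every water-only library.

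The precursors of the Pep danger peptides, which amplify immune signalling through the receptors PEPR1 and PEPR2, did not behave as 1 group. PROPEP2 had 17.7 and 27.2 FPKM in hrcC leaves and was listed at 0 in all 3 water-only libraries. PROPEP3 had 76.7 and 106 FPKM in hrcC leaves, against 0.246, 0.411 and 0 FPKM in water-only leaves, a log2 fold change of 6.24 ± 0.39. PROPEP1 was the marker that did not pass, with 12.8 and 10.2 FPKM in hrcC leaves, against 1.98, 7.02 and 7.15 FPKM in water-only leaves and an adjusted p of 0.081 by limma. PUB22 and PUB23, U-box ubiquitin ligases that restrain pattern signalling, had log2 fold changes of 6.66 ± 0.28 and 5.11 ± 0.44, and PUB22 reached 331 and 432 FPKM in hrcC leaves, against 3.31, 4.07 and 1.42 FPKM in water-only leaves.

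**Figure D2:**
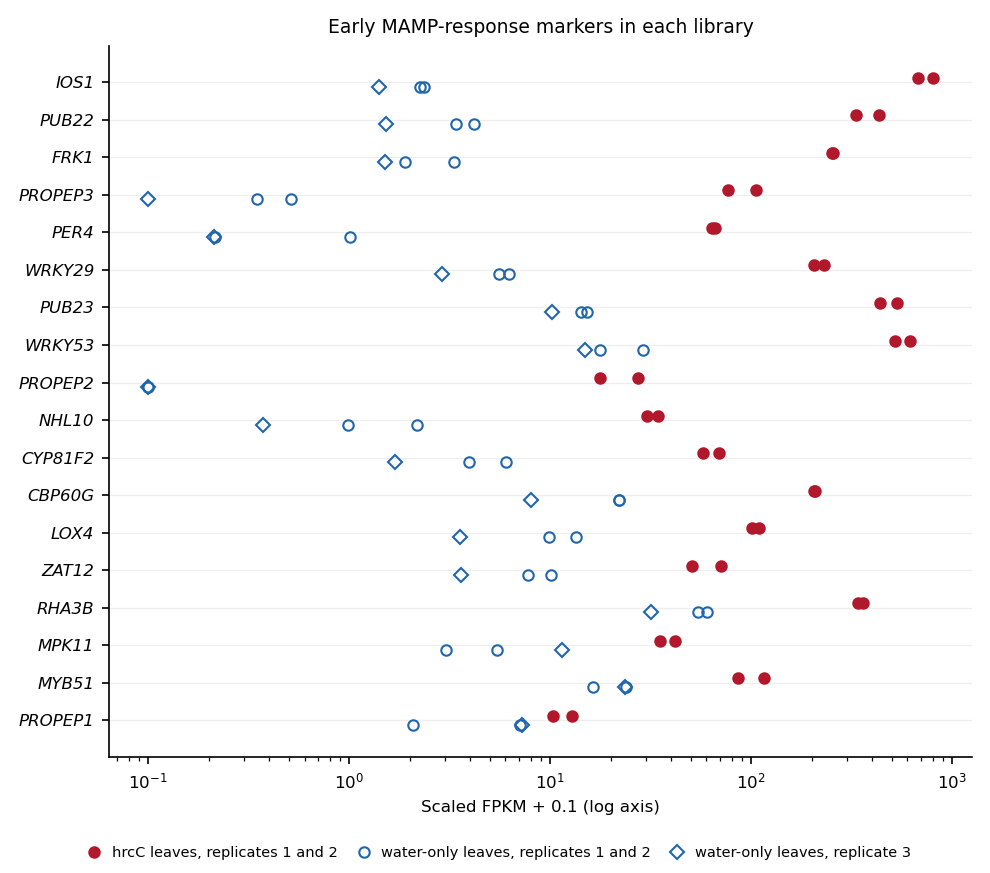
Scaled FPKM (log axis, after adding 0.1) of the 18 early MAMP-response markers, 1 row per gene, with 1 point per library; filled circles are the 2 hrcC leaf libraries and open symbols the 3 water-only libraries. In 17 of 18 rows both filled circles lie right of all open symbols with a called difference; PROPEP1 is the marker that was not called.

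Most of the receptor and signalling genes were called higher. Of 35 perception and signalling genes, all tested, 29 rose in hrcC leaves, none fell, and the median log2 fold change was 2.06. FLS2, the flagellin receptor, had 95.2 and 88.8 FPKM in hrcC leaves, against 20.9, 20.4 and 17.5 FPKM in water-only leaves, a log2 fold change of 2.18 ± 0.14 (limma adjusted p = 2.0e-08). EFR, the receptor for elongation factor Tu, had 24.5 and 30.04 FPKM in hrcC leaves, against 1.83, 2.35 and 4.61 FPKM in water-only leaves, a log2 fold change of 2.90 ± 0.33 (limma adjusted p = 5.6e-06). The chitin receptor kinase CERK1 and its partners LYK4 and LYK5 changed by 1.95, 2.28 and 2.51 on the log2 scale, and SD1-29 (also called LORE), which senses bacterial 3-hydroxy fatty acids, by 3.35. The co-receptor BAK1 rose by 2.11 and its paralogue BKK1 by 3.10, and so did BIR1, a kinase that keeps BAK1 in check, by 2.63. BIR1 had 384 and 369 FPKM in hrcC leaves, against 59.1, 58.7 and 62.0 FPKM in water-only leaves, with no overlap between the groups.

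Downstream of the receptors, BIK1 had 186 and 231 FPKM in hrcC leaves, against 19.6, 20.3 and 9.35 FPKM in water-only leaves, a log2 fold change of 3.65 ± 0.33 (limma adjusted p = 7.8e-07). RBOHD, the NADPH oxidase of the oxidative burst, had 73.5 and 57.4 FPKM in hrcC leaves, against 12.6, 12.8 and 20.1 FPKM in water-only leaves, a log2 fold change of 2.06 ± 0.36 (limma adjusted p = 3.0e-04). The 6 members that were not called were CPK11, FER, PBL27, LYM3, BSK1 and LYM1, and LYM1 and LYM3, which bind bacterial peptidoglycan, had 10.9 and 8.42 FPKM and 8.14 and 5.08 FPKM in hrcC leaves, against 8.43, 8.49 and 15.1 FPKM and 3.03, 3.49 and 9.70 FPKM in water-only leaves. Among 13 genes of the immune MAP kinase cascade, all tested, 12 rose and 1, MKK9, fell, with a median log2 fold change of 1.46. MKK9 had 16.4 and 16.1 FPKM in hrcC leaves, against 29.3, 28.4 and 21.97 FPKM in water-only leaves, and its call was lost without either hrcC library, without water-only replicate 1 and without water-only replicate 2. MKK4 and MKK5, which phosphorylate MPK3 and MPK6, rose by 2.40 and 1.64, while MPK3 rose by 1.42 and MPK6 by 0.85. MPK11 changed most in this list, with 41.9 and 35.3 FPKM in hrcC leaves, against 5.35, 2.93 and 11.4 FPKM in water-only leaves, a log2 fold change of 2.54 ± 0.51 (limma adjusted p = 8.2e-04).

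Cysteine-rich receptor-like kinases (CRKs), a family of which several members affect immune responses when overproduced, gave the highest median of the kinase lists. Of 25 listed CRKs 24 were tested, 20 rose, 1 fell, and the median log2 fold change was 2.87. CRK29 had 472 and 760.0 FPKM in hrcC leaves, against 4.95, 5.81 and 5.02 FPKM in water-only leaves, a log2 fold change of 6.59 ± 0.21 (limma adjusted p = 2.9e-11), and CRK36, CRK38 and CRK45 changed by 4.38, 4.73 and 3.42. CRK39 had 15.6 and 16.7 FPKM in hrcC leaves, against 0.718, 0.760 and 0.218 FPKM in water-only leaves, a log2 fold change of 3.47 ± 0.16, and its difference from rdd is given further on.

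A run of neighbouring genes on chromosome 1 holds 3 of the 5 genes with the largest log2 increases of the whole comparison. The window was chosen after the values were seen and holds 17 protein-coding genes in the RefSeq annotation, from 4 genes before IOS1 to 12 after it. Of these, 8 passed the filter on low values, and 8 were called higher. AT1G51820 had 386 and 450.4 FPKM in hrcC leaves, against 0.0964, 0.464 and 0.0473 FPKM in water-only leaves, and AT1G51850 had 385 and 422 FPKM in hrcC leaves, against 0.847, 0.696 and 1.11 FPKM in water-only leaves. AT1G51790, AT1G51890, AT1G51805 and AT1G51860 had log2 fold changes of 5.50, 4.80, 3.15 and 3.01, and IAR3, an amidohydrolase of hormone conjugates, had 3.27. AT1G51820, AT1G51850 and AT1G51860 passed the filter through hrcC leaves alone and could hardly be called lower. The other 9 genes of the window were too low to test.

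Among calcium and WRKY genes most calls were higher too. Of 16 calcium and touch genes, all tested, 9 rose and none fell. TCH3, a calmodulin-like protein, had 3806 and 3807 FPKM in hrcC leaves, against 323, 328 and 134 FPKM in water-only leaves, a log2 fold change of 3.97 ± 0.32 (limma adjusted p = 2.5e-07), and CML42 and XTH23 changed by 3.98 and 4.13. The wound and touch gene TCH4 was not called, with 124 and 70.1 FPKM in hrcC leaves, against 88.8, 98.3 and 58.1 FPKM in water-only leaves. Of 58 WRKY transcription factors 47 were tested, 30 rose, and 3 fell, and their median log2 fold change was 1.58. The 3 that fell, WRKY3, WRKY20 and WRKY13, had log2 fold changes between -0.62 and -0.40, and none of them passed when only the 5 compared libraries were fitted. Without hrcC replicate 2, 1 WRKY gene fell, and without water-only replicate 3, 5 fell.

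WRKY29, which lies downstream of the flg22 MAP kinase cascade, had 206 and 230.0 FPKM in hrcC leaves, against 6.12, 5.49 and 2.80 FPKM in water-only leaves, a log2 fold change of 5.29 ± 0.28 (limma adjusted p = 4.8e-09). WRKY33, the activator of camalexin synthesis, had 297 and 320.1 FPKM in hrcC leaves, against 44.2, 24.3 and 38.9 FPKM in water-only leaves, a log2 fold change of 3.11 ± 0.25 (limma adjusted p = 1.8e-07). WRKY11 and WRKY17, related repressors of basal defence, changed by 2.90 and 3.32, and WRKY53 by 4.78. Of 18 rapid-stress regulators, all tested, 17 rose and 1 fell, MYB44, with 36.9 and 34.1 FPKM in hrcC leaves, against 82.8, 106 and 97.2 FPKM in water-only leaves and a log2 fold change of -1.39 ± 0.24 (limma adjusted p = 2.2e-04). The zinc finger ZAT11 had 55.3 and 58.9 FPKM in hrcC leaves, against 0.868, 1.01 and 0.379 FPKM in water-only leaves, a log2 fold change of 5.07 ± 0.22. MYB15, a regulator of defence lignin, had 214 and 303 FPKM in hrcC leaves, against 1.67, 4.38 and 0.246 FPKM in water-only leaves, a log2 fold change of 6.61 ± 0.55 (limma adjusted p = 2.9e-07). ZAT10 had 309 and 358 FPKM in hrcC leaves, against 37.2, 34.8 and 12.5 FPKM in water-only leaves, so it was already well above ZAT11 and MYB15 without bacteria.

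The ERF and DREB factors moved both ways. Of 26 listed, 25 were tested, 13 rose and 4 fell. The ethylene-response factors ERF5 and ERF11 rose by 2.15 and 2.52, and ABR1 had 133 and 206 FPKM in hrcC leaves, against 1.82, 19.3 and 0.360 FPKM in water-only leaves. The 4 that fell were the cold regulators CBF1, CBF2 and CBF3 and the repressor ERF8. CBF3 was at 0 and 0.0853 FPKM in hrcC leaves, against 25.2, 22.7 and 4.00 FPKM in water-only leaves, and in this gene as in CBF1 and CBF2 water-only replicate 3 was the lowest of its group. With only replicate 3 kept in the groups without bacteria, an alternative described with the photosynthesis genes, 1 of the list fell. ORA59 and ERF1, which join ethylene and jasmonate in resistance to necrotrophs, were not called.

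Genes of the hormone pathways gave uneven counts. For salicylic acid, 24 of 25 listed genes were tested, 14 rose, and 1 fell, with a median log2 fold change of 1.21. EDS5, which exports isochorismate from the chloroplast, had 92.6 and 122 FPKM in hrcC leaves, against 6.95, 7.67 and 4.31 FPKM in water-only leaves, a log2 fold change of 3.91 ± 0.22 (limma adjusted p = 8.2e-09). CBP60G, a transcriptional activator of salicylic acid synthesis, had 207 and 206 FPKM in hrcC leaves, against 21.8, 21.8 and 7.94 FPKM in water-only leaves, a log2 fold change of 3.63 ± 0.42 (limma adjusted p = 6.4e-06). ICS1, the isochorismate synthase, had 63.6 and 59.6 FPKM in hrcC leaves, against 21.4, 18.04 and 11.8 FPKM in water-only leaves. The late output PR1 was not called, with 48.0 and 56.0 FPKM in hrcC leaves, against 81.8, 10.5 and 45.2 FPKM in water-only leaves, so the groups overlapped, and PR5, FMO1 and ALD1, which act late or in systemic resistance, were not called either. The gene that fell was NIMIN3, with a log2 fold change of -1.01, and that call was lost without either hrcC library and without water-only replicate 1.

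Jasmonate genes had the highest median of the hormone lists and differed widely between replicates. Of 32 listed genes 29 were tested, 22 rose and 3 fell, with a median log2 fold change of 2.36, and 13 rose when hrcC replicate 2 was left out. AOC3, an allene oxide cyclase, had 573 and 1005 FPKM in hrcC leaves, against 8.19, 50.7 and 2.79 FPKM in water-only leaves, a log2 fold change of 5.96 ± 0.90 (limma adjusted p = 8.4e-05). JAZ8, a repressor of jasmonate signalling, had 78.5 and 144 FPKM in hrcC leaves, against 0.461, 3.59 and 0 FPKM in water-only leaves, a log2 fold change of 5.83 ± 0.63. CYP94C1, which inactivates jasmonoyl-isoleucine, had 277 and 418 FPKM in hrcC leaves, against 2.65, 20.1 and 0.956 FPKM in water-only leaves, a log2 fold change of 6.01 ± 0.73 (limma adjusted p = 1.2e-05). Water-only replicate 2 was the highest of its group in each of these 3 genes, and the summed level of the list was 6834 and 10340 FPKM in hrcC leaves, against 1443, 3515 and 1777 FPKM in water-only leaves. The 3 that fell, 1 when hrcC replicate 1 or water-only replicate 2 was left out, were AOC4, JAZ3 and the defensin PDF1.2, and PDF1.2 had 8.14 and 30.8 FPKM in hrcC leaves, against 204, 262 and 46.0 FPKM in water-only leaves. VSP1 and VSP2, storage proteins that follow jasmonate late, were too low to test.

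Of 19 ethylene genes 18 were tested, 9 rose and 3 fell, and when hrcC replicate 1 or hrcC replicate 2 was left out 4 and 3 rose. ACS7, an ACC synthase, had 39.6 and 28.5 FPKM in hrcC leaves, against 0.150, 0.211 and 0.0757 FPKM in water-only leaves, a log2 fold change of 4.92 ± 0.20. ACO4, an ACC oxidase, had 1675 and 1850 FPKM in hrcC leaves, against 160.1, 178 and 153 FPKM in water-only leaves, a log2 fold change of 3.42 ± 0.25 (limma adjusted p = 7.7e-08). The transcription factor EIL1, the receptor ERS2 and the signalling protein EIN2 were the genes that fell, and EIN3, the partner of EIL1, was not called.

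The calls among genes of defence metabolites lay in opposite directions in the indole and aliphatic branches. Of 30 genes of tryptophan, indole glucosinolate and camalexin synthesis 28 were tested, 21 rose, none fell, and the median log2 fold change was 1.95. PEN2, the atypical myrosinase that activates indole glucosinolates, had 1272 and 1116 FPKM in hrcC leaves, against 147, 127 and 165 FPKM in water-only leaves, a log2 fold change of 3.03 ± 0.15 (limma adjusted p = 2.5e-09). PAD3, the last enzyme of camalexin synthesis, had 215 and 278 FPKM in hrcC leaves, against 3.69, 2.36 and 1.63 FPKM in water-only leaves, a log2 fold change of 6.15 ± 0.57 (limma adjusted p = 8.8e-07). ASA1, ASB1 and TSA1 of tryptophan synthesis rose by 2.19, 3.40 and 2.13. Of 13 aliphatic glucosinolate genes, all tested, 1 rose and 7 fell, with a median of -1.47. The regulator MYB28 had 14.0 and 15.9 FPKM in hrcC leaves, against 33.9, 36.2 and 64.4 FPKM in water-only leaves, a log2 fold change of -1.47 ± 0.50 (limma adjusted p = 0.027), and the gene that rose was SOT17, a sulfotransferase, by 0.77. The count of 7 rested on single libraries: it was 3 without hrcC replicate 1, 0 without hrcC replicate 2, 2 without water-only replicate 3, and 1 with nuclear genes set to the same total. The call of SOT17 was lost without hrcC replicate 1 and without water-only replicate 1.

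Among genes of protective enzymes and protein folding most calls were higher. Of 21 glutathione transferases 16 were tested, 10 rose and none fell. GSTF6 had 3837 and 4557 FPKM in hrcC leaves, against 122, 152 and 77.3 FPKM in water-only leaves, and its close copy GSTF7 had 1942 and 2294 FPKM in hrcC leaves, against 86.6, 60.9 and 46.5 FPKM in water-only leaves; how reads were divided between such copies is not given in the sources used here. Of 9 genes of peroxidases, callose and chitinases, 6 were tested, 4 rose, and 1, PR4, fell. PMR4, the callose synthase of papillae, had 49.5 and 57.0 FPKM in hrcC leaves, against 10.6, 11.8 and 12.9 FPKM in water-only leaves, a log2 fold change of 2.09 ± 0.25 (limma adjusted p = 8.2e-06). PRX71, a secreted peroxidase, had 992 and 1029 FPKM in hrcC leaves, against 32.4, 57.5 and 10.4 FPKM in water-only leaves. The count of 4 was 2 without either hrcC library. Of 16 heat shock genes 11 were tested, 9 rose and none fell. HSFA2, a heat shock transcription factor, had 48.7 and 98.4 FPKM in hrcC leaves, against 0.857, 0.591 and 0.369 FPKM in water-only leaves, a log2 fold change of 5.46 ± 0.33, and HSP90.1 had 139.7 and 227 FPKM in hrcC leaves, against 4.54, 4.07 and 2.96 FPKM in water-only leaves. The small heat shock protein HSP17.6A reached only 1.42 and 2.56 FPKM in hrcC leaves.

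Of 10 endoplasmic reticulum folding genes, all tested, 8 rose. BIP2, an HSP70 chaperone of that compartment, had 447 and 588 FPKM in hrcC leaves, against 21.6, 21.4 and 80.8 FPKM in water-only leaves, a log2 fold change of 3.89 ± 1.01 (limma adjusted p = 0.0054), so water-only replicate 3 lay between the other water-only libraries and the hrcC leaves. BZIP60, which activates such chaperones, had 234 and 235 FPKM in hrcC leaves, against 50.3, 36.8 and 24.7 FPKM in water-only leaves, and here replicate 3 was the lowest. The count of 8 was 5 without hrcC replicate 1, 3 without hrcC replicate 2 and 5 without water-only replicate 2.

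Of 16 intracellular NLR immune receptors, all tested, 9 rose and 2, SUMM2 and RPP4, fell, of which 1 fell without hrcC replicate 1. RMG1, a receptor gene reported to be under control of DNA methylation, had 18.6 and 22.9 FPKM in hrcC leaves, against 0.354, 0.295 and 0.256 FPKM in water-only leaves, a log2 fold change of 4.06 ± 0.28. The helper receptor ADR1-L1 had 208 and 209 FPKM in hrcC leaves, against 56.3, 51.8 and 58.8 FPKM in water-only leaves, and RPM1, which guards RIN4, changed by 2.16. SNC1 and RPS2 were not called.

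**Figure D3:**
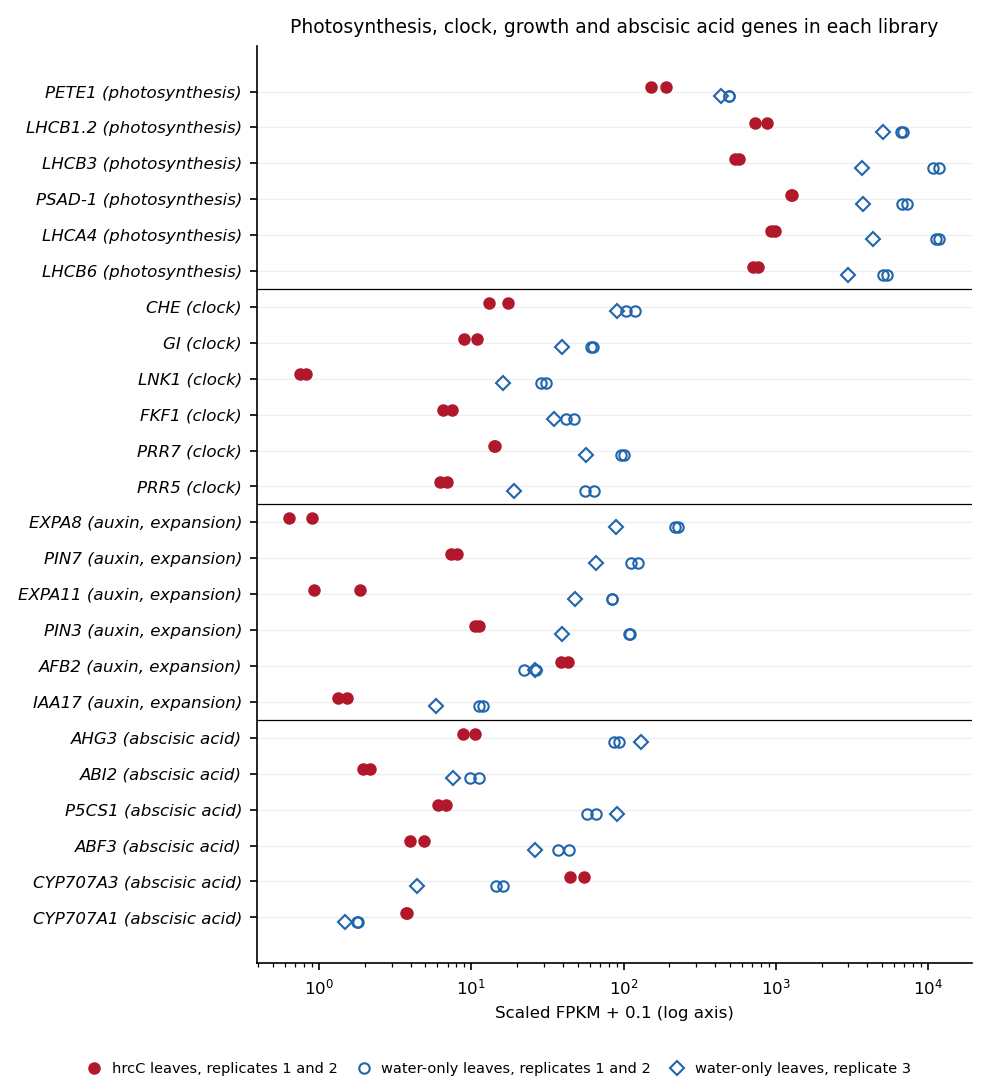
Scaled FPKM (log axis, after adding 0.1) of 24 genes of photosynthesis, clock, auxin and expansion, and abscisic acid lists, the 6 called members of each list with the smallest adjusted p; filled circles are the 2 hrcC libraries, and open symbols the 3 water-only libraries, with replicate 3 as a diamond. The filled circles lie left of the open symbols in the genes that fell, and the diamond lies between them and the other open symbols in most photosynthesis genes.

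Most photosynthesis genes were called lower. All 43 nuclear photosynthesis genes were tested, none rose, 33 fell, and their median log2 fold change was -1.56. LHCB1.1 (CAB2), an antenna protein of photosystem II, had 52.7 and 72.3 FPKM in hrcC leaves, against 8382, 8513 and 1145 FPKM in water-only leaves, a log2 fold change of -6.11 ± 1.22 (limma adjusted p = 8.4e-04). LHCB3 had 575 and 543 FPKM in hrcC leaves, against 11890, 10700 and 3692 FPKM in water-only leaves, a log2 fold change of -3.80 ± 0.65 (limma adjusted p = 2.6e-04). PETE1, the minor plastocyanin, had 190.5 and 152 FPKM in hrcC leaves, against 489.8, 494 and 436 FPKM in water-only leaves, a log2 fold change of -1.47 ± 0.21 (limma adjusted p = 5.0e-05). The summed level of the list was 102700 and 109300 FPKM in hrcC leaves, against 366500, 358700 and 219000 FPKM in water-only leaves. Replicate 3 lay below the other water-only libraries in the sum, in LHCB1.1 and in LHCB3, and the groups still did not overlap. The antenna genes of 1 type are near-identical copies, so that single values among LHCB1.1, LHCB1.2, LHCB2.1 and LHCB2.2 are uncertain. In bulk tissue, fewer cells of a type and less RNA per cell cannot be told apart.

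With only replicate 3 kept in every group without bacteria, an alternative chosen after the organelle shares were seen, the median of the photosynthesis genes was -1.10. This leaves 1 library in each of those groups, which is assumed to vary like the other groups. The direction of the other groups with lower medians was less uniform. For auxin and expansion growth, 27 genes were tested, 2 rose, 12 fell and the median was -1.18, but with only replicate 3 kept the median was 0.17. EXPA8, an expansin that loosens the cell wall, had 0.537 and 0.799 FPKM in hrcC leaves, against 228, 218 and 88.6 FPKM in water-only leaves, a log2 fold change of -6.63 ± 0.60. PIN7, an auxin efflux carrier, had 7.96 and 7.25 FPKM in hrcC leaves, against 125, 111 and 66.2 FPKM in water-only leaves, a log2 fold change of -3.51 ± 0.36 (limma adjusted p = 2.1e-06). PIN3 had 10.4 and 11.2 FPKM in hrcC leaves, against 110.4, 108 and 39.3 FPKM in water-only leaves, and IAA4 had 11.3 and 11.8 FPKM in hrcC leaves, against 120.3, 110.1 and 39.98 FPKM in water-only leaves, so that both had larger distances within the water-only group. The 2 that rose were the auxin co-receptor AFB2 and the expansin EXPA5, and 1 rose when either hrcC library was left out.

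Abscisic acid genes were lower in part. Of 25 listed 23 were tested, 2 rose and 8 fell. AHG3, a protein phosphatase that blocks abscisic acid signalling, had 8.71 and 10.4 FPKM in hrcC leaves, against 86.2, 93.0 and 130.4 FPKM in water-only leaves, a log2 fold change of -3.28 ± 0.25 (limma adjusted p = 1.2e-07). P5CS1, the first enzyme of proline synthesis, had 6.68 and 5.94 FPKM in hrcC leaves, against 57.8, 65.8 and 90.5 FPKM in water-only leaves, a log2 fold change of -3.29 ± 0.47 (limma adjusted p = 4.9e-05). Both were highest in water-only replicate 3. The 2 that rose, CYP707A1 and CYP707A3, encode hydroxylases that break down abscisic acid, and CYP707A3 had 54.7 and 44.4 FPKM in hrcC leaves, against 16.0, 14.5 and 4.31 FPKM in water-only leaves. The count of 8 was 5 without either hrcC library or water-only replicate 2, and 12 without water-only replicate 3.

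Clock genes differed in both directions, and the hour of sampling is not given in the labels. Of 29 listed genes 28 were tested, 2 rose, 12 fell, and 14 were not called. LNK1, a coactivator of daytime genes, had 0.720 and 0.650 FPKM in hrcC leaves, against 28.8, 30.8 and 16.2 FPKM in water-only leaves, a log2 fold change of -3.91 ± 0.36. GI, which acts in photoperiodic flowering, had 10.8 and 8.81 FPKM in hrcC leaves, against 60.8, 62.5 and 39.6 FPKM in water-only leaves, a log2 fold change of -2.33 ± 0.21 (limma adjusted p = 6.0e-07). The pseudo-response regulators PRR7 and PRR5 were at 13.9 and 14.2 FPKM and 6.09 and 6.82 FPKM in hrcC leaves, against 101, 96.5 and 56.8 FPKM and 55.4, 64.0 and 18.9 FPKM in water-only leaves. The 2 that rose were BOA and CO, and CO, the flowering regulator CONSTANS, had 13.1 and 13.2 FPKM in hrcC leaves, against 0.0750, 0.243 and 3.29 FPKM in water-only leaves. The morning gene CCA1 was not called, with 0.0912 and 0.192 FPKM in hrcC leaves, against 4.23, 4.45 and 0.492 FPKM in water-only leaves: water-only replicate 3 was close to the hrcC leaves and replicates 1 and 2 were above both. PRR9 showed the same arrangement, with 0 and 0.0853 FPKM in hrcC leaves, against 22.7, 19.9 and 0.473 FPKM in water-only leaves. Genes that follow the hour of the day thus differed within the water-only group as well as between the groups. With only replicates 1 and 2 kept 20 clock genes fell, but there 71.7% of all genes tested were called, against 47.1% with all libraries.

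The machinery of DNA methylation, the subject of the series, had no called log2 fold change beyond -1.16 on the log2(FPKM + 1) scale, which understates low genes. Of 22 listed genes 21 were tested, 2 rose, 9 fell, and the median log2 fold change was -0.27. ROS1, the main DNA demethylase of leaves, had 10.2 and 11.0 FPKM in hrcC leaves, against 21.6, 21.2 and 16.8 FPKM in water-only leaves, a log2 fold change of -0.84 ± 0.17 (limma adjusted p = 8.1e-04). DML2 and DML3 had 2.95 and 2.27 FPKM and 0.811 and 0.757 FPKM in hrcC leaves, against 4.81, 4.12 and 7.48 FPKM and 2.02, 1.86 and 2.57 FPKM in water-only leaves. DRM2 and AGO4 of RNA-directed DNA methylation had log2 fold changes of -1.16 ± 0.18 and -1.13 ± 0.18, the largest falls of the list on this scale. DRD1, a chromatin remodeller of the same pathway, averaged 1.73 ± 0.400 FPKM in hrcC leaves and 4.96 ± 1.36 FPKM in water-only leaves (SD, n = 2 and 3), and without the added 1 FPKM its ratio and that of DML3 were larger than those of DRM2 and AGO4. The 2 that rose, DME and CMT2, were called with all 5 libraries but neither was without hrcC replicate 1, hrcC replicate 2, water-only replicate 1 or water-only replicate 2.

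Leaving out the members that entered the test through 1 group alone gave these counts for the lists above. Of 21 CRKs 17 rose and 1 fell, of 38 WRKY factors 23 rose and 2 fell, and of 19 ERF and DREB factors 11 rose and 1 fell. Of 27 jasmonate genes 20 rose and 3 fell, with a median of 1.84, and of 15 ethylene genes 7 rose and 2 fell. Of 12 glutathione transferases 7 rose, of 9 heat shock genes 7, of 15 calcium and touch genes 8, and of 5 peroxidase, callose and chitinase genes 3. Of 11 aliphatic glucosinolate genes 1 rose and 5 fell, of 22 auxin and expansion genes 2 rose and 8 fell, of 20 clock genes 1 rose and 11 fell, and of 18 DNA methylation genes 2 rose and 7 fell. In the perception, rapid-stress and NLR lists 1 gene that rose dropped out of each, and the MAP kinase, indole, photosynthesis and ER folding lists held no such gene.

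Markers of other leaf cell types were called at shares that cannot be set apart from those of all genes. In the guard cell list 28.6% and in the phloem list 25% of the few tested genes were lower, against 23.7% of all genes. Of the guard cell and stomatal lineage list 7 of 10 were tested and 2 fell, both secreted signals of stomatal patterning: EPFL9 had 1.12 and 1.49 FPKM in hrcC leaves, against 15.5, 22.9 and 29.9 FPKM in water-only leaves and EPF1 had 1.59 and 1.58 FPKM in hrcC leaves, against 7.48, 10.7 and 6.49 FPKM in water-only leaves. The guard cell genes FAMA and MYB60 had 15.4 and 14.4 FPKM and 11.8 and 13.5 FPKM in hrcC leaves, against 15.2, 12.8 and 14.8 FPKM and 14.2, 11.9 and 7.91 FPKM in water-only leaves. All 4 phloem companion cell markers were tested and 1, SULTR2;1, fell, a call that was lost without either hrcC library, without water-only replicate 1 and without water-only replicate 2. Of 5 epidermis markers 4 were tested and none was called. Of 10 senescence and dark-induced genes 8 were tested and 2 fell, NAP and ORE1, and NAP had 0.598 and 1.04 FPKM in hrcC leaves, against 138, 85.2 and 5.69 FPKM in water-only leaves, so that water-only replicate 3 was far below replicates 1 and 2. Neither NAP nor ORE1 was called without hrcC replicate 1, hrcC replicate 2, water-only replicate 1 or water-only replicate 2. Of 8 cell division genes 5 were tested and 1, KNOLLE, fell, which was not called without either hrcC library. Among root markers SCR and SHR, which leaves also express, fell, with log2 fold changes of -0.94 and -0.81. The summed level of the guard cell list was 56.8 and 55.5 FPKM in hrcC leaves, against 76.6, 79.0 and 82.1 FPKM in water-only leaves. Much of that distance lay in the secreted signal EPFL9, while the groups overlapped in FAMA and MYB60, so the sum does not stand for the whole list. The summed level of the phloem list was 477 and 436 FPKM, against 563, 570.1 and 477 FPKM, and that of the epidermis list 388 and 346 FPKM, against 436, 453 and 249 FPKM. The part of these cell types in the results was not tested.

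Among the genes with the largest increases some are in none of the lists. PP2-A5, a phloem protein 2-like lectin, had 1669 and 2191 FPKM in hrcC leaves, against 3.504, 14.5 and 0.578 FPKM in water-only leaves, a log2 fold change of 8.64 ± 0.68 (limma adjusted p = 1.8e-07). NRT2.6, a nitrate transporter of the NRT2 family, had 710.4 and 761 FPKM in hrcC leaves, against 2.74, 3.44 and 1.90 FPKM in water-only leaves, a log2 fold change of 7.66 ± 0.34 (limma adjusted p = 1.0e-09). MLO12, a relative of the powdery mildew susceptibility gene MLO2, had 742 and 938 FPKM in hrcC leaves, against 5.85, 8.52 and 1.42 FPKM in water-only leaves, a log2 fold change of 7.27 ± 0.50 (limma adjusted p = 5.2e-08). AT3G63380 (ACA12), a calcium pump, had 214 and 343 FPKM in hrcC leaves, against 1.31, 1.19 and 1.16 FPKM in water-only leaves, LHT7, an amino acid transporter, had 337 and 390.2 FPKM in hrcC leaves, against 2.01, 0.802 and 1.73 FPKM in water-only leaves, and RGXT2, a xylosyltransferase acting on pectin, had 660.5 and 771 FPKM in hrcC leaves, against 6.01, 5.26 and 7.85 FPKM in water-only leaves. PP2-A5 varied most within the water-only group, and in each of these genes the groups were far apart.

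At the other end, AT4G29905 had 1.48 and 0.373 FPKM in hrcC leaves, against 236, 214 and 359 FPKM in water-only leaves, a log2 fold change of -7.16 ± 0.26. AT2G44130 (KMD3), an F-box protein, was listed at 0 in both hrcC libraries and had 55.9, 47.1 and 44.4 FPKM in water-only leaves. GASA6, a peptide induced by gibberellin, had 22.9 and 10.5 FPKM in hrcC leaves, against 1244, 1066 and 292 FPKM in water-only leaves, and KDR, a small bHLH protein, had 0.527 and 0.267 FPKM in hrcC leaves, against 122, 132 and 16.8 FPKM in water-only leaves. AT5G46871 was listed at 0 in hrcC leaves and had 31.8, 95.1 and 33.7 FPKM in water-only leaves, but in rdd it averaged 27.7 ± 39.1 FPKM with hrcC (SD, n = 2) and 9.11 ± 15.8 FPKM with water only (SD, n = 3), and in WT its call was lost without either hrcC library and without water-only replicate 2.

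**Figure D4:**
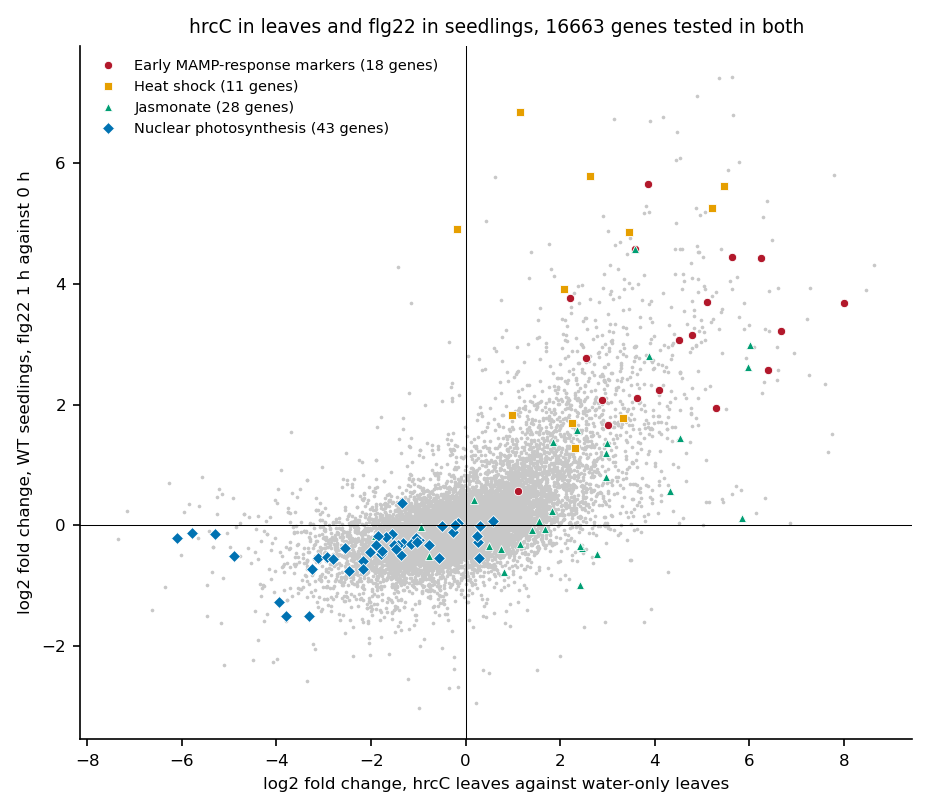
Log2 fold change of hrcC leaves against water-only leaves (x axis) and of WT seedlings at 1 h of flg22 against 0 h (y axis), both on log2(FPKM + 1), for genes tested in both; grey points are all 16663 such genes, and coloured points are members of 4 lists. Early MAMP-response markers lie in the upper right, heat shock genes lie higher on the y axis, and jasmonate genes spread along the x axis.

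The seedling libraries, which share no library with the leaf sets, give a MAMP response at the same time after the stimulus. There, 2124 of 18270 genes (11.6%) were higher and 1278 (7%) lower at 1 h of flg22 against 0 h, and by at least 2-fold 1214 (6.64%) were higher and 264 (1.44%) lower. Among 16663 genes tested in both, 2559 were at least 2-fold higher in hrcC leaves and 1168 at least 2-fold higher at flg22 1 h in seedlings. The 966 that were in both make up 37.8% of the leaf genes and 82.7% of the seedling genes, while 15.4% of all 16663 genes were called at least 2-fold higher in the leaves. Of 250 genes at least 2-fold lower in seedlings 137 (54.8%) were also at least 2-fold lower in hrcC leaves, where 14.3% of all were, but they were 5.76% of the 2379 lower in leaves. Of these sets 6 genes higher in hrcC leaves (0.234%) were at least 2-fold lower in seedlings, where 1.5% of all were. Conversely, 5 genes lower in hrcC leaves (0.21%) were at least 2-fold higher in seedlings, where 7.01% of all were.

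List by list the 2 experiments gave different counts. Of the 18 early markers 17 rose in seedlings too, with log2 fold changes of 2.57 ± 0.46 for FRK1 and 4.44 ± 0.28 for PER4, and CYP81F2, an indole glucosinolate hydroxylase, had 3.85 ± 0.37 in hrcC leaves and 5.66 ± 0.21 in seedlings. Heat shock genes had a median log2 fold change of 2.31 in hrcC leaves and 4.86 in seedlings, where all 11 tested rose, and HSP17.6A had 1.16 ± 0.38 in hrcC leaves and 6.85 ± 0.34 in seedlings. JAZ8, PAD3 and ACO4, which rose in hrcC leaves, were not called in seedlings, with log2 fold changes of 0.13 ± 0.37, 0.20 ± 0.32 and -0.24 ± 0.14. Tissue, age, stimulus and library set differ between the experiments, and the difference itself was not tested. The touch genes TCH4 and EXO fell in seedlings, with -2.93 ± 0.17 and -3.02 ± 0.15, and were not called in hrcC leaves. ER folding genes had a median of 0.14 in seedlings, where 3 of 9 tested rose. Of the photosynthesis genes 12 of 43 fell in seedlings, with a median of -0.32. No gene of the DNA methylation list was called in seedlings.

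In rdd leaves the same treatments gave nearly the same calls. RNA of the mutated gene ROS1 was not lower there, with 24.97 ± 2.59 FPKM with hrcC and 28.4 ± 3.04 FPKM with water only in rdd, against 10.6 ± 0.554 and 19.8 ± 2.68 FPKM in WT (SD, n = 2 with hrcC and 3 with water only), and DML3 had 0.509 ± 0.00490 and 0.544 ± 0.177 FPKM in rdd, against 0.784 ± 0.0382 and 2.15 ± 0.370 FPKM in WT. Where the mutations lie in these genes is not given in the sources used here, so RNA levels do not check the genotype label. Of the 2731 genes that were at least 2-fold higher in WT and tested in both genotypes, 2509 (91.9%) were at least 2-fold higher in rdd as well, and they were 90.8% of the 2762 such genes in rdd; 15.6% of all genes tested in both were called so in rdd. For genes at least 2-fold lower the shares were 85.9% and 84.9%. Of all 18037 genes tested in rdd, 2798 (15.5%) were at least 2-fold higher and 2559 (14.2%) at least 2-fold lower. The change of library set is common to both genotypes, and it cannot be told apart from the bacteria in the shared calls. The genotype difference in the effect was tested itself: of 18521 genes, 2 (0.0108%) were called, both with a more positive effect in WT, and none was called when only the compared libraries were fitted. By limma 304 genes had an unadjusted p under 0.05, which is below the share of 0.05 that this threshold gives without any effect. With only replicates 1 and 2 kept in the groups without bacteria it was 1417, and with a term for the organelle share class 900. The few calls therefore do not show that the effects were alike in both genotypes. In CRK39 the effect was 2.69 ± 0.23 log2 units larger in WT (limma adjusted p = 1.2e-04), since rdd leaves had 1.02 and 0.651 FPKM with hrcC and 0.0635, 0 and 0.126 FPKM with water only. The other gene, AT2G38905, was listed at 0 in all 5 WT libraries and in rdd leaves with hrcC, while rdd leaves with water only had 2.67, 2.63 and 3.73 FPKM. CRK39 reached the filter on low values through WT hrcC leaves, and AT2G38905 through rdd water-only leaves, so that each could be called in 1 direction only. No gene of the receptor, MAP kinase or WRKY lists was called for a genotype difference, but with 2 calls among 18521 genes this says nothing about these lists.

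**Figure D5:**
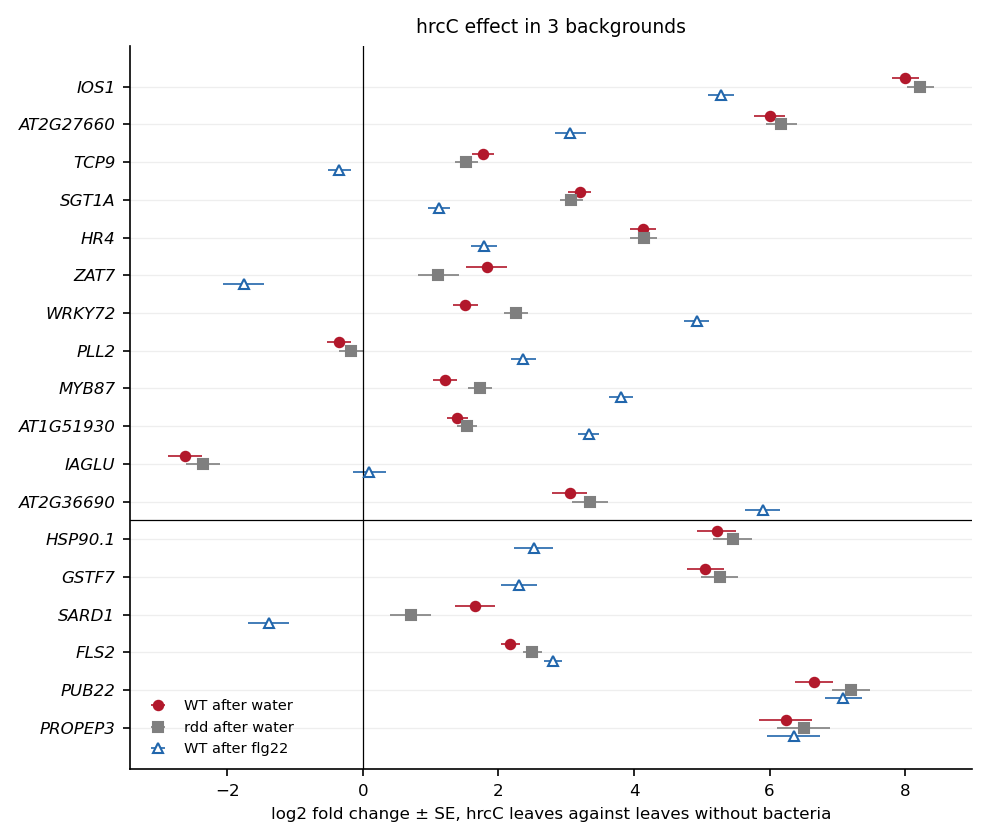
Log2 fold change ± SE of hrcC leaves against leaves without bacteria in 3 backgrounds, WT after water (filled circles), rdd after water (squares) and WT after flg22 (open triangles), for the genes of the pretreatment comparison named by rule and 6 further members of the lists. For IOS1, HSP90.1 and GSTF7 the triangle lies left of both other symbols, and for WRKY72 it lies right of them.

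Leaves that had received flg22 a day before the bacteria responded differently in some genes. In WT leaves after flg22, 23.9% of 17681 genes tested were higher and 25.3% lower with hrcC. Of 18568 genes tested for the difference between the pretreatments, 473 (2.55%) were called: 303 (1.63%) had a more positive hrcC effect after water than after flg22 and 170 (0.916%) a less positive one. IOS1 had a log2 fold change of 8.004 ± 0.197 after water and 5.28 ± 0.20 after flg22, a difference of 2.72 ± 0.28 (limma adjusted p = 3.9e-04). With hrcC it averaged 741 ± 86.1 FPKM after water and 1024 ± 14.6 FPKM after flg22 (SD, n = 2 each), and without bacteria 1.91 ± 0.519 FPKM after water and 25.8 ± 6.45 FPKM after flg22 (SD, n = 3 each), so that the ratio between the pretreatments was larger without bacteria than with them. HR4, a homologue of the resistance gene RPW8, had the same arrangement, with 214 ± 28.7 FPKM after water and 1193 ± 128 FPKM after flg22 in leaves without bacteria (SD, n = 3 each), and a difference of 2.34 ± 0.28 (limma adjusted p = 9.1e-04). SGT1A, a co-chaperone of immune receptors, had log2 fold changes of 3.199 ± 0.168 after water and 1.12 ± 0.17 after flg22, and TCP9, a transcription factor, had 1.77 ± 0.17 after water and -0.35 ± 0.17 after flg22. HSP90.1 had 5.22 ± 0.29 after water and 2.52 ± 0.29 after flg22, and GSTF7 had 5.05 ± 0.27 after water and 2.303 ± 0.269 after flg22.

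A few genes turned direction. ZAT7, a zinc finger protein, rose after water, with a log2 fold change of 1.83 ± 0.30, and fell after flg22, with -1.76 ± 0.30, a difference of 3.59 ± 0.43 (limma adjusted p = 9.6e-04). SARD1, a relative of CBP60G, had 1.65 ± 0.30 after water and -1.39 ± 0.30 after flg22, a difference of 3.04 ± 0.43 (limma adjusted p = 0.0027). WRKY72 responded more strongly after flg22, with 1.51 ± 0.18 after water and 4.92 ± 0.18 after flg22, a difference of -3.41 ± 0.26 (limma adjusted p = 3.8e-05). With hrcC it averaged 2.23 ± 0.498 FPKM after water and 68.8 ± 3.61 FPKM after flg22 (SD, n = 2 each). MYB87 behaved likewise, with 1.21 ± 0.18 after water and 3.81 ± 0.18 after flg22, while IAGLU, a glucosyltransferase of auxin, had -2.62 ± 0.25 after water and 0.10 ± 0.25 after flg22.

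For other immune genes the difference between pretreatments was not called, which does not show that the effects were alike. FLS2 had a log2 fold change of 2.18 ± 0.14 after water and 2.80 ± 0.14 after flg22, a difference of -0.63 ± 0.19 (limma adjusted p = 0.11). PUB22 had 6.66 ± 0.28 after water and 7.09 ± 0.28 after flg22, and PROPEP3 had 6.24 ± 0.39 after water and 6.36 ± 0.39 after flg22. The number of called differences depended on the libraries used: it was 60 more positive and 45 less positive when only the compared libraries were fitted, and 1255 and 699 with only replicate 3 kept in the groups without bacteria. With the replicate number as a block it was 1681 and 1091, and with a term for the organelle share class, by which replicates 1 and 2 split from replicate 3 in the groups without bacteria, 1896 and 1275. Leaving out 1 library at a time gave 44 (without hrcC replicate 2 after water) to 476 (without replicate 3 after flg22 and no bacteria) more positive effects, and 28 (without hrcC replicate 1 after flg22) to 273 (without water-only replicate 3) less positive ones.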

How the data were processed

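RNA from 38 libraries was measured by RNA-seq, and 5 leaf libraries are compared here. The authors deposited 1 value per gene and library; the submitters' processing notes name HISAT2, featureCounts and DESeq2 and the TAIR10 build, with no versions or settings. The deposited values were taken as FPKM, because they are not whole and their totals lie close together but differ between libraries; no header names the unit, and the absolute depth is unknown. Only 34.9% to 50.8% of low genes lay on whole-read steps shared with hrcC replicate 1, so no count test was run. Those steps put the fragments of the other 4 libraries at 0.841 to 1.47 times those of hrcC replicate 1.

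Values were divided by median-ratio size factors over nuclear genes above 0 in every library, without ATCG and ATMG genes, separately for 20 leaf and 18 seedling libraries. limma 3.58.1 in R 4.3.3 (eBayes with trend and robust variances, two-sided) was fitted on log2(FPKM + 1) to all 20 leaf libraries in 8 groups, with Benjamini-Hochberg adjustment over all genes that reached 1 FPKM in 2 or more of the compared libraries. Fold changes on this scale understate low genes. Genes were called at an adjusted p under 0.05. Errors are SE for fold changes and SD for levels. The procedure was tested on simulated data with independent noise, without a library-set difference or a split among the water-only replicates. It therefore does not check the calls against either.

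Named genes are the 15 largest changes in each direction (called, at least 5 FPKM, no overlap, nuclear), up to 6 called members per list by smallest adjusted p, with up to 3 further members of lists with fewer than 3 called, and the 6 smallest p per direction of each interaction. Members, lists and comparisons were chosen with earlier results of these data known, and further list members were named after their values were seen, for their roles. Of the list entries 600 were used and 19 were left out because the RefSeq annotation (97.7% of gene IDs matched) does not carry their symbol. The labels state 3 repeats, but the hrcC groups hold 2 libraries each here. Summed levels and other single values were not tested apart from the fit across genes. DNA methylation data were not used here.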

Additional observations from a re-analysis of the deposited data

Results flagged for a closer look

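In 2 genes the hrcC effect differed between genotypes by the interaction term. The difference (WT minus rdd) was 2.69 log2 units for CRK39 and 1.99 log2 units for AT2G38905, which is not tested in the WT comparison because it was listed at 0 in all 5 of its libraries. Each passed the filter on low values through 1 group, CRK39 through WT hrcC leaves and AT2G38905 through rdd water-only leaves.

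In 27 of 191 tested genes named here the hrcC effect differed between leaves that had received water and leaves that had received flg22. This is again by the interaction term (adjusted over all genes tested by limma), which called 473 of 18568 genes (2.55%). The effect was more positive after water in 22 of these, and in 303 of the 473 over all genes. The difference was 3.72 log2 units for AT3G63380, 3.59 for ZAT7, 3.32 for HSFA2 and 3.04 for SARD1. It was 2.75 for GSTF7, 2.72 for IOS1, 2.70 for HSP90.1, 2.59 for GSTF6 and 2.58 for CBP60G. HR4 differed by 2.34, AT1G51850 by 2.31, TCP9 by 2.12, SGT1A by 2.08 and HSP70 by 1.95. The kinases CRK39, CRK45, BKK1, MKK4 and BIR1 differed by 1.57, 1.47, 1.44, 1.14 and 1.12, and the helper receptor ADR1-L1 by 1.40. The exocyst subunit EXO70B2 differed by 1.27 and the syntaxin SYP121 by 0.99. The effect was less positive after water in 5 genes, with differences of -1.98 log2 units for AOC4, -2.60 for MYB87, -2.72 for IAGLU, -2.82 for EPFL9 and -3.41 for WRKY72. TCP9, SGT1A, HR4, MYB87 and IAGLU were named for their small p in this same term, so that their calls followed from the choice. The count of 27 is therefore no result about the named genes. Most of these genes were named by other rules, and the differences share the water-only and hrcC libraries of the main comparison.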

How the results depend on the processing

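Of the named genes 178 were called, and none of those with a result under an alternative changed direction there. The call was lost in 14 of 163 without hrcC replicate 2, in 10 of 163 without hrcC replicate 1 and in 6 of 178 with nuclear genes set to the same total. Under the first 2 alternatives 15 genes each had no result because they no longer passed the filter, as had 13 with a filter at 5 FPKM and 9 with only replicate 3. The WT water counts stayed within 1.5 times of those reported, except for 2666 genes lower without hrcC replicate 2, 6508 genes lower with replicates 1 and 2 alone kept in the groups without bacteria and 1536 genes at least 2-fold lower with a pseudocount of 5. Leaving out 1 library gave 2841 to 4313 genes higher, 2666 to 4655 lower, 2119 to 2866 at least 2-fold higher and 1820 to 2952 at least 2-fold lower. Where this left 1 library in a group, that library is assumed to vary like the other groups. For seedlings it gave 1680 to 2037 higher and 868 to 1266 lower.

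The genotype difference, with 2 genes more positive in WT, gave 1 with a pseudocount of 0.1, 5 without a filter, 1 with a filter at 5 FPKM, 0 with the compared libraries alone, 1 with only replicate 3, 8 with only replicates 1 and 2 and 4 with a term for the organelle share class. Less positive in WT were 1 without a filter, 2 with only replicate 3 and 12 with only replicates 1 and 2. Leaving out 1 library gave 2 to 3 more positive and 0 to 2 less positive. The pretreatment difference, with 303 more positive and 170 less positive after water, gave 567 more positive with values as deposited and 611 with nuclear genes set to the same total, 97 less positive with a pseudocount of 0.1 and 311 with a pseudocount of 5. It gave 60 and 45 with the compared libraries alone, 1255 and 699 with only replicate 3, 3146 and 2400 with only replicates 1 and 2, and 1896 and 1275 with the class term. Leaving out 1 library gave 44 to 476 more positive and 28 to 273 less positive. The causes were not tested. The share of genes called lower that were also lower in seedlings was 17.5% at any fold, against 5.76% at 2-fold. The 3 alternatives on replicates 1, 2 and 3 of the groups without bacteria and the class term were chosen after seeing the data.

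Whether the replicate numbers pair the hrcC with the water-only libraries could not be decided. Same-numbered libraries of hrcC and water-only leaves correlated at 0.042 and 0.0921 in their deviations from the group means. With 2 hrcC libraries these deviations mirror each other, so that differently numbered libraries gave -0.0921 and -0.042. Replicates 1 and 2 share their organelle share class across the groups without bacteria. With the replicate number as a block 6111 genes were higher and 6353 lower, the genotype difference gave 4 and 0, and the pretreatment difference 1681 and 1091. The promoter motif shares were not run, since no promoter sequences were at hand.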

Other observations

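Gene families grouped by the letters that open their annotated symbol were looked at after the values were seen. Of 114 families with at least 10 tested genes a few are named here for their roles. Their counts are set against the 23.4% of all genes called higher and the 23.7% called lower. The counts include members that entered the test through 1 group alone and could hardly be called in the other direction. Among these are EXO70H1 through hrcC leaves, and UMAMIT44 and BBX16 through water-only leaves. Family counts without such members were not made, so the order of the families may rest in part on the filter. MAPKKK genes, kinases at the head of MAP kinase cascades, had the highest share called higher, 9 of 11 (81.8%), with none lower. Of 19 tested CPK genes, calcium-dependent protein kinases, 15 (79.0%) were higher in hrcC leaves and 1 was lower, with a median log2 fold change of 1.74. CPK1 had 159.7 and 149 FPKM in hrcC leaves, against 20.6, 27.0 and 15.4 FPKM in water-only leaves, and CPK28, which promotes turnover of BIK1, had 83.0 and 82.5 FPKM in hrcC leaves, against 29.9, 31.9 and 15.6 FPKM in water-only leaves. Of 17 EXO genes, subunits of the exocyst complex that tethers secretory vesicles, 13 (76.5%) were higher and none was lower. EXO70H1 had 24.8 and 32.9 FPKM in hrcC leaves, against 0.0536, 0.0316 and 0.170 FPKM in water-only leaves, and EXO70B2 had 194 and 210.0 FPKM in hrcC leaves, against 25.8, 20.5 and 26.2 FPKM in water-only leaves. The plasma membrane syntaxin SYP121, which acts in penetration resistance, had 344 and 366 FPKM in hrcC leaves, against 48.6, 44.3 and 41.8 FPKM in water-only leaves, and of 17 SYP genes 10 were higher and 2 lower.

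The highest share called lower was in scpl genes, serine carboxypeptidase-like proteins, with 7 of 11 (63.6%) lower and 1 higher. Of 24 UMAMIT genes, transporters of amino acids and related compounds, 15 (62.5%) were lower and 3 higher. UMAMIT44 had 1.02 and 0.448 FPKM in hrcC leaves, against 16.9, 18.4 and 21.6 FPKM in water-only leaves, with a log2 fold change of -3.54 ± 0.24. Of 14 BBX genes, B-box zinc finger proteins of light signalling, 8 (57.1%) were lower and 2 higher, and BBX16 had 0.0405 and 0.0426 FPKM in hrcC leaves, against 29.2, 29.5 and 2.36 FPKM in water-only leaves. None of 21 RPL genes, which encode ribosomal proteins, was called in either direction, and their median log2 fold change was 0.0174; at an unadjusted p under 0.05 limma gave 0 as well. Water-only replicate 3 was the lowest of its group in BBX16.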
